A study of Mus musculus with 20 samples.

Results

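The proteasome is described here through the genes of its subunits in mouse hypothalamus. Members were taken from the protein-coding genes of the Psma, Psmb, Psmc, Psmd, Psme and Psmf series, by a number in the symbol and at least 10 counts in at least 3 libraries. This gave 42 genes of 43 candidates and of 54532 genes in the table. The core particle had 17 members, the regulatory particle 20, and 5 were activators or an inhibitor. The rule is one of symbols and a count minimum and uses no difference between groups.

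RNA sequencing of poly-A RNA gave 20 libraries from the hypothalamus of male C57BL/6J mice. Gly-Low is a glycation-lowering diet; glycation is the chemical attachment of sugar-derived aldehydes to proteins without an enzyme. The 4 young control libraries came from mice aged 3 months on control diet for 1 week. The acute arm consisted of 9 libraries from mice aged 4 months after 1 week of diet, 5 on control food (acute control) and 4 on Gly-Low (acute Gly-Low). The 4 old control and 3 old Gly-Low libraries came from mice aged 25 months after 5 months on either diet. No genotype or transgene is named for any group. The labels do not say whether libraries are separate animals, so p-values measure the spread between these samples.

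The proteasome degrades proteins that carry ubiquitin chains. Its core particle is a barrel of stacked rings: alpha subunits form the gated outer rings and beta subunits the inner rings, where Psmb5, Psmb6 and Psmb7 carry the peptidase sites. The regulatory particle sits on the barrel ends. Its base holds a ring of ATPases that unfold substrates, and its lid removes ubiquitin. Under interferon, cells can swap in the inducible peptidase subunits Psmb9, for Psmb6, and Psmb10, for Psmb7. When proteasome activity falls, the transcription factor NRF1 (Nfe2l1) is processed and raises subunit genes together. Neurons depend on proteasome activity for synaptic turnover and for clearing damaged protein.

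Total counts ran from 15848372 to 27399753 per library. All 8 fixed hypothalamic markers were detected in every group, with summed levels of 1259.8 to 2303 CPM (read counts relative to library size, scaled by TMM) in acute Gly-Low and 308 to 1079 CPM in acute control. Several features of the libraries moved with the acute groups. Mitochondrial transcripts took 17.0 to 23.3% of counts in acute Gly-Low and 5.35 to 9.11% in acute control, against 5.73 to 17.2% in young control. The length slope, which says how a library's log2 CPM departs from the mean of all libraries as transcripts double in length, was -0.43 to -0.23 in acute Gly-Low and 0.14 to 0.23 in acute control: short transcripts were relatively abundant in the former. Pituitary markers summed to 7.41 to 61851 CPM in acute control and 42.8 to 218 CPM in acute Gly-Low, where Pou1f1 was at 0, and endothelial markers to 60.4 to 78.9 and 15.9 to 26.8 CPM.

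Per kilobase of transcript, and averaged over the 20 libraries, the most abundant subunit genes were the ATPase Psmc5 (203 CPM per kb), the caspase-like peptidase subunit Psmb6 (200.5), the structural beta subunit Psmb4 (198) and the alpha subunit Psma6 (171). The 7 constitutive beta subunits lay between 99.98 CPM per kb (Psmb2) and 200.5. Of the 8 alpha subunits, 7 lay between 60.2 (Psma5) and 171 CPM per kb. The exception was Psma8, the alpha subunit of male germ cells, at 0.340 CPM per kb. It reached 10 counts in 10 libraries.

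The 6 ATPases ran from 74.5 (Psmc4) to 203 CPM per kb. The 11 non-ATPase and lid subunits ran from 16.9 (Psmd11, a lid scaffold) to 102 (Psmd4, a ubiquitin receptor). The 3 base assembly chaperones, which guide the ATPase ring together and then leave, ran from 13.7 (Psmd9) to 27.4 (Psmd5). Inducible Psmb10 stood at 37.2 CPM per kb and inducible Psmb9 at 2.754. Among the activators, levels were 101 CPM per kb for Psme1 and 43.5 for Psme2, partners in one ring, 37.4 for the nuclear Psme3 and 5.84 for the large Psme4. The inhibitor Psmf1 stood at 15.8 CPM per kb.

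Because most members moved together in the acute arm, their start regions were read for motifs. RefSeq windows of 300 bases (250 before to 50 after the annotated start, build GRCm38.p6) were matched by symbol for 35 of the 42 members. A gene with several windows was counted once, by a match in any of them. Motifs were searched on both strands and were chosen with the members' values known. The antioxidant response element, the site that NRF1 and its relative NRF2 bind, was searched as TGACNNNGC. It was found in 6 of 35 members and in 13.99% of all 27025 genes with a window. The letters CCGGAAG, a site of the ETS factors, were found in 12 of 35 members (34.3%) and in 9.93% of all genes with a window. They were in 9 of 17 regulatory genes and 1 of 13 core genes. A match describes letters in this window and is not a measured binding site.

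The following 7 stretches show these motifs in 4 members that were higher in acute Gly-Low (Psmb5, Psmc6, Psmd6 and Psmd9) and 2 that were lower (Psmd2 and Psmd11), 5′ to 3′ in the direction of the gene, with the motif in capitals. Capitals that read as the reverse complement are a match on the other strand. The first 3 lines hold the antioxidant response element and the last 4 the ETS letters.
Psmb5, chr14:54618009-54618067, minus strand: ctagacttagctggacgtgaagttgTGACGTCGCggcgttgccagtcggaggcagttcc
Psmc6, chr14:45329574-45329628, plus strand: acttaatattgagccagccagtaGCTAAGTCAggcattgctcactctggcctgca
Psmd9, chr5:123228134-123228189, plus strand: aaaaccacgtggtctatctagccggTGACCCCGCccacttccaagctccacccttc
Psmc6, chr14:45329699-45329755, plus strand: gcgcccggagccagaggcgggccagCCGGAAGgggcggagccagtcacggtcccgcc
Psmd6, chr14:14120959-14121015, minus strand: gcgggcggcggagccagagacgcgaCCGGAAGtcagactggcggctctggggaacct
Psmd2, chr16:20651601-20651651, plus strand: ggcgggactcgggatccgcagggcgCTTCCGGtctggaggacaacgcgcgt
Psmd11, chr11:80428579-80428614, plus strand: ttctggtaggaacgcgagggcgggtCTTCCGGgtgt

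The ETS letters thus stood in windows of members that moved in either direction. Of the lower members shown, Psmd2 lost its call with the libraries' length trend removed, as described below. Psmd11 lost its call without certain single libraries. The CCAAT box was in 13 of 35 members and 41.1% of all genes with a window.

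Core and regulatory particle genes were then compared over the 5 groups with a level per library: the mean over a particle's genes of log2 CPM minus each gene's mean over the 20 libraries. The core level was 1.08, 0.88, 0.73 and 0.96 in the 4 acute Gly-Low libraries and -0.27, -0.41, -0.50, -0.44 and -0.55 in the 5 acute controls. All 4 acute Gly-Low libraries stood above the other 16, of which old control 3 was highest at 0.42. The regulatory level was 0.39, 0.33, 0.25 and 0.31 in acute Gly-Low and 0.063, -0.24, -0.15, -0.093 and -0.26 in acute control. Acute Gly-Low was again above acute control in every library, but old control 3 (0.28) lay within its range.

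The core minus regulatory difference was 0.59 ± 0.10 (mean ± SD, n = 4) in acute Gly-Low. Acute control had -0.30 ± 0.076 (n = 5), young control -0.081 ± 0.18 (n = 4), old control -0.022 ± 0.11 (n = 4) and old Gly-Low -0.15 ± 0.072 (n = 3). Acute Gly-Low was the only group whose libraries all lay above the libraries of every other group. In raw counts, core genes took 1.05 to 1.204 times the counts of regulatory genes in acute Gly-Low. The same ratio was 0.561 to 0.629 in acute control, 0.594 to 0.792 in young control, 0.639 to 0.833 in old control and 0.595 to 0.646 in old Gly-Low. The 42 members together made up 0.618 to 0.638% of an acute Gly-Low library and 0.399 to 0.495% of an acute control library. In bulk tissue, fewer cells of a type and less RNA per cell cannot be told apart.

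**Figure D1:**
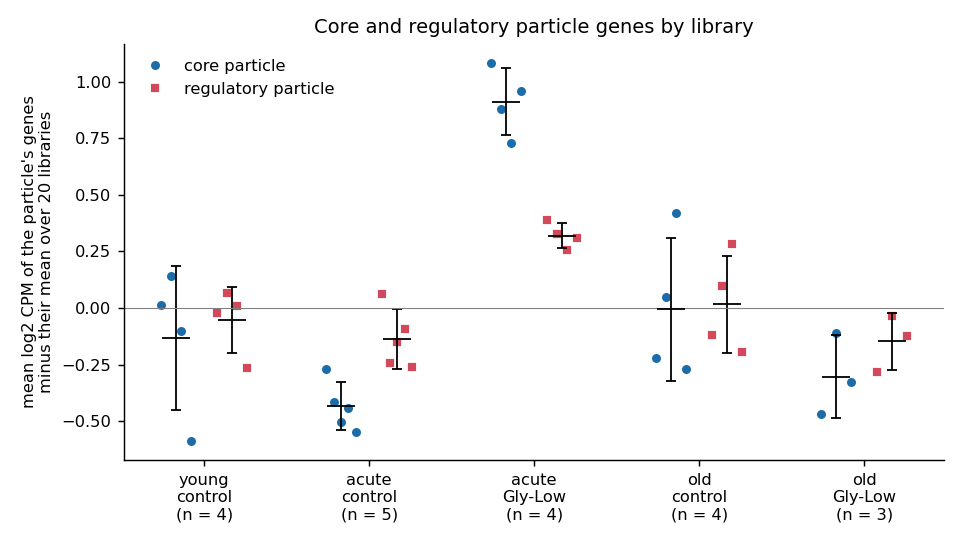
Level of core (circles) and regulatory (squares) particle genes in each library, as mean log2 CPM minus the genes' mean over 20 libraries, with group mean and SD. The 4 acute Gly-Low libraries have core levels of 0.73 to 1.08 and regulatory levels of 0.25 to 0.39.

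Acute Gly-Low against acute control addresses the effect of 1 week on the diet in young adult mice. Of the 42 members, 30 were higher in acute Gly-Low, 5 were lower and 7 did not pass an adjusted p of 0.05 in edgeR's quasi-likelihood test. Among all 17161 genes tested, 58.3% passed: 27.8% were higher and 30.5% lower. The median log2 fold change of the members was 0.90, against -0.068 for all genes. Core genes had a median of 1.43 with 16 of 17 higher. Regulatory genes had a median of 0.59 with 12 of 20 higher and 3 lower. In CPM, every acute Gly-Low library lay above every acute control for 28 members and below for 5, where 22.5% and 24.5% of all genes did so.

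**Figure D2:**
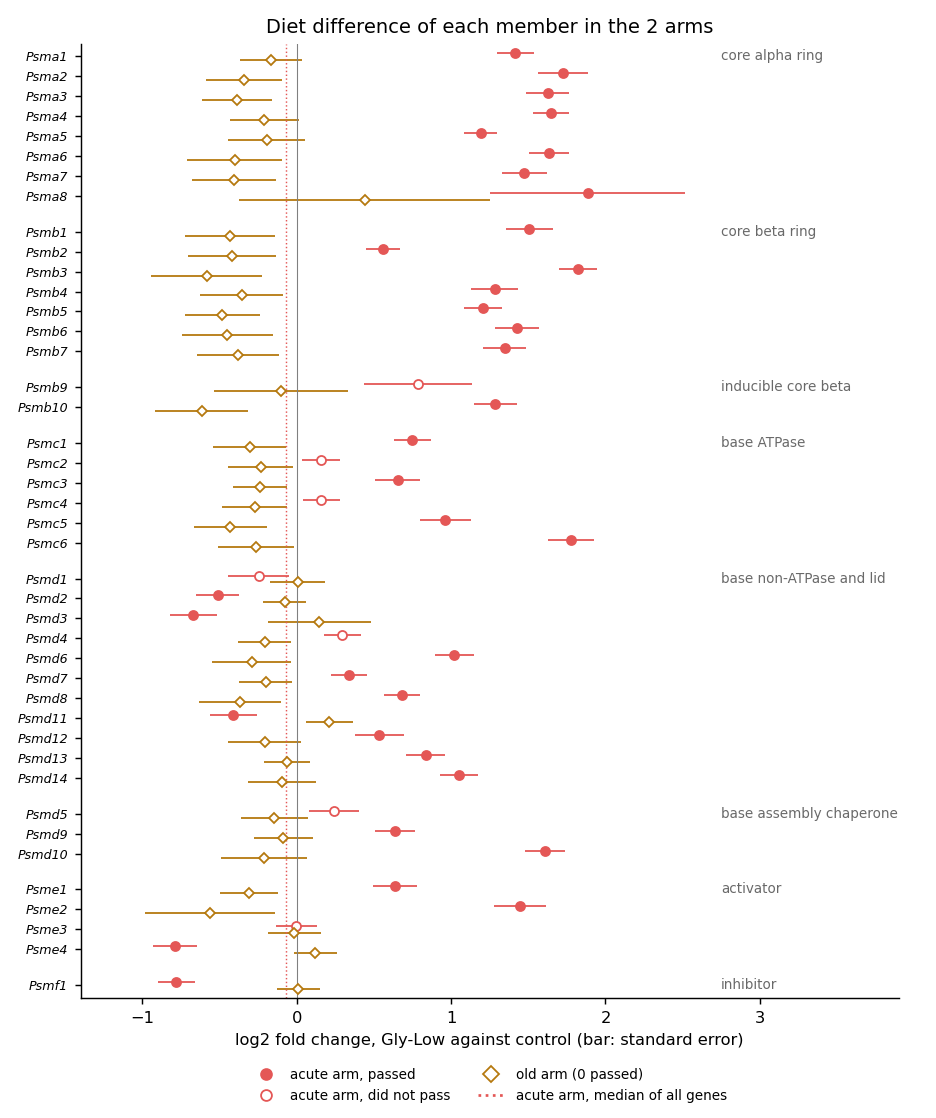
Log2 fold change of Gly-Low against control (x axis, bars are standard errors) of the 42 members, by role, in the acute arm (circles, filled where the test passed) and in the old arm (diamonds, 0 passed); the dotted line is the acute median of all genes, -0.068. The core members lie from 0.56 to 1.88 in the acute arm.

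All 8 alpha ring genes were higher, with log2 fold changes from 1.19 (Psma5) to 1.88 (Psma8) and a median of 1.63. Psma4 (ENSMUSG00000032301, chr9:54950790-54958030) had 233, 233, 211 and 248 CPM in the 4 acute Gly-Low libraries and 83.8, 73.5, 74.4, 78.8 and 70.8 CPM in the 5 acute controls. Its lowest Gly-Low library was above all 16 other libraries, and the log2 fold change was 1.65 (SE 0.12, adjusted p = 1.89e-07). Psma6 (ENSMUSG00000021024, chr12:55384222-55418454) had 323, 289, 251 and 279 CPM in acute Gly-Low and 105, 89.7, 99.9, 97.6 and 82.4 CPM in acute control, a log2 fold change of 1.63 (SE 0.13, adjusted p = 2.55e-07). The groups did not overlap. Psma8, a near-silent member, reached 0.404 to 1.88 CPM in acute Gly-Low and at most 0.543 CPM in acute control. Its groups overlapped, and its call was lost without acute Gly-Low 4 (adjusted p = 0.0883).

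The 7 constitutive beta ring genes were all higher, from 0.56 (Psmb2) to 1.82 (Psmb3), with a median of 1.35. With the length trend of the libraries removed (described after the activators), Psmb2 turned to -0.53 and was called lower (adjusted p = 0.00173). Psmb3 (ENSMUSG00000069744, chr11:97703399-97713500), a structural subunit, had 273, 220.1, 208 and 224 CPM in acute Gly-Low and 67.9, 70.8, 69.5, 68.6 and 61.1 CPM in acute control. The groups were far apart, at 231 ± 28.8 (SD, n = 4) against 67.6 ± 3.79 CPM (n = 5), a log2 fold change of 1.82 (SE 0.12, adjusted p = 1.88e-07). It had the smallest p of any member.

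Of the peptidase subunits, Psmb5 (ENSMUSG00000022193, chr14:54614119-54618022), the chymotrypsin-like site, had 181, 138, 139 and 145 CPM in acute Gly-Low and 72.2, 68.4, 70.7, 67.9 and 58.1 CPM in acute control. Acute Gly-Low 1 was the highest, no library overlapped, and the log2 fold change was 1.21 (SE 0.13, adjusted p = 1.92e-06). Psmb6 (ENSMUSG00000018286, chr11:70525367-70527858), the caspase-like site, had 322, 271, 248 and 264 CPM in acute Gly-Low and 131, 102, 108, 98.8 and 90.9 CPM in acute control. Its log2 fold change was 1.43 (SE 0.14, adjusted p = 1.24e-06) with no overlap. Psmb7 (ENSMUSG00000026750, chr2:38588036-38644087), the trypsin-like site, had 209, 205, 203 and 214 CPM in acute Gly-Low and 109, 79.0, 77.7, 82.9 and 72.6 CPM in acute control, where acute control 1 stood above the other controls. Its log2 fold change was 1.35 (SE 0.14, adjusted p = 1.65e-06). The log2 fold changes of the peptidase genes lay close together, from 1.21 to 1.43, and their differences from each other were not tested.

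Of the inducible subunits, only Psmb9 was low. Psmb10 (ENSMUSG00000031897, chr8:105935735-105938444) had 98.2, 65.5, 79.7 and 69.7 CPM in acute Gly-Low and 31.2, 36.4, 36.6, 34.0 and 27.7 CPM in acute control, without overlap, a log2 fold change of 1.29 (SE 0.14, adjusted p = 2.76e-06). Psmb9 (ENSMUSG00000096727, chr17:34181987-34187764) had 4.71, 3.44, 3.05 and 2.98 CPM in acute Gly-Low and 1.31, 4.23, 1.74, 1.78 and 1.59 CPM in acute control. Acute control 2 stood apart from the other controls and fell among the Gly-Low libraries, and the log2 fold change was 0.78 (SE 0.35, adjusted p = 0.0691), which did not pass. Without acute control 2 it was 1.18 and passed (adjusted p = 0.00465).

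Set against the subunit it replaces, per kilobase, Psmb9 was 0.864%, 0.750%, 0.725% and 0.665% of Psmb6 in acute Gly-Low and 0.591%, 2.44%, 0.953%, 1.07% and 1.03% in acute control. It was 0.773% to 1.82% in young control, 1.64% to 2.41% in old control and 2.33% to 2.61% in old Gly-Low. The old Gly-Low range lay above the young control range, while acute Gly-Low overlapped acute control. Psmb10 was 28.2% to 41.6% of Psmb7 in acute Gly-Low and 25.4% to 41.7% in acute control, and these ranges overlapped.

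**Figure D3:**
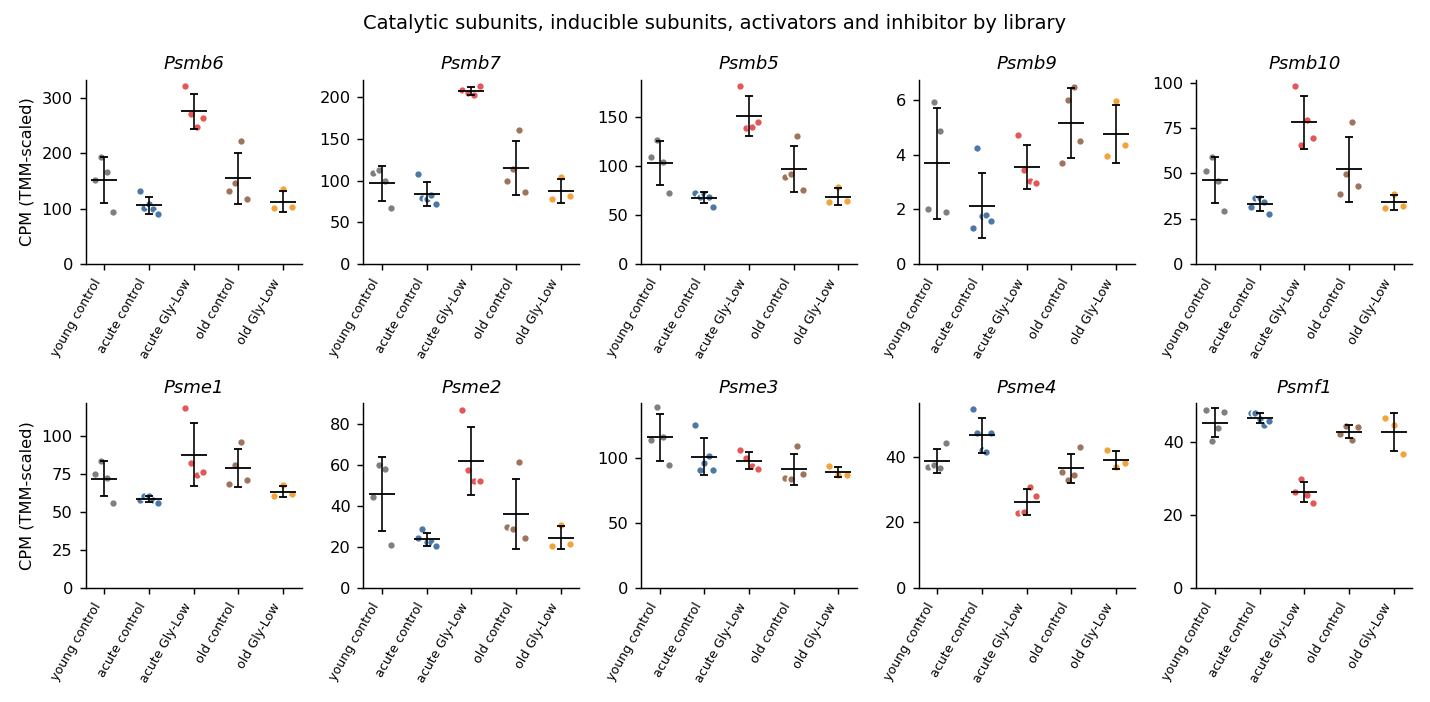
TMM-scaled CPM of the peptidase subunits, inducible subunits, activators and inhibitor in each library (points) with group mean and SD. Psmf1 is at 23.2 to 29.8 CPM in acute Gly-Low and at 36.8 CPM or more in every other library; Psmb7 is at 203 to 214 CPM in acute Gly-Low.

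Within the regulatory particle the response was uneven. Of the 6 ATPases, Psmc1, Psmc3, Psmc5 and Psmc6 were higher, at 0.75, 0.65, 0.96 and 1.78 on the log2 scale. Psmc2 and Psmc4 both had 0.16 (adjusted p = 0.283 and 0.274). Psmc6 (ENSMUSG00000021832, chr14:45329788-45349705) had 386, 401, 311 and 403 CPM in acute Gly-Low and 139.7, 102, 103, 119 and 101 CPM in acute control. Every Gly-Low library was above all 16 others, and the log2 fold change was 1.78 (SE 0.15, adjusted p = 3.44e-07). Psmc4 of the same ring (ENSMUSG00000030603, chr7:28041707-28050101) had 113, 97.03, 85.9 and 86.0 CPM in acute Gly-Low and 91.3, 84.1, 94.0, 89.8 and 82.7 CPM in acute control, with overlapping groups.

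Of the 11 non-ATPase and lid genes, 6 were higher: Psmd6 (1.02), Psmd7 (0.34), Psmd8 (0.68), Psmd12 (0.54), Psmd13 (0.83) and Psmd14 (1.05), the last of which encodes the lid's deubiquitinase. Psmd1 (-0.25, adjusted p = 0.294) and Psmd4 (0.30, adjusted p = 0.0503) did not pass. Psmd2, Psmd3 and Psmd11 were lower.

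Psmd2 (ENSMUSG00000006998, chr16:20651652-20663414), the base subunit that docks ubiquitin-like shuttle proteins, had 183, 209.8, 207 and 186 CPM in acute Gly-Low and 365, 269, 266, 289 and 254 CPM in acute control. Acute control 1 was the highest, the groups did not overlap, and the log2 fold change was -0.51 (SE 0.14, adjusted p = 0.00616). The call of Psmd2 was lost with the length trend removed (adjusted p = 0.135). Psmd3 (ENSMUSG00000017221, chr11:98682554-98695979), a lid subunit, had 44.1, 48.5, 45.9 and 46.5 CPM in acute Gly-Low and 49.98, 81.6, 95.9, 79.7 and 74.1 CPM in acute control. The Gly-Low libraries were below every acute control but overlapped young and old controls, and the log2 fold change was -0.67 (SE 0.15, adjusted p = 0.00149). Psmd11 (ENSMUSG00000017428, chr11:80428615-80473248) had 37.5, 34.1, 26.5 and 22.8 CPM in acute Gly-Low and 38.2, 43.0, 43.4, 39.9 and 43.3 CPM in acute control, just separate, a log2 fold change of -0.41 (SE 0.15, adjusted p = 0.0301). Its call was lost without acute Gly-Low 3 (adjusted p = 0.0859) or 4 (adjusted p = 0.104). That of Psmd7 was lost without acute control 2, 3 or 5 or without acute Gly-Low 1 or 2, with adjusted p from 0.0519 to 0.0654. Psmd4 passed without acute control 1 (adjusted p = 0.0143) or acute Gly-Low 3 (adjusted p = 0.0251).

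Among the base chaperones, Psmd10 (gankyrin; ENSMUSG00000031429, chrX:140948429-140956728) had 65.5, 58.3, 50.1 and 62.4 CPM in acute Gly-Low and 21.8, 19.6, 19.8, 21.8 and 16.9 CPM in acute control. Its Gly-Low libraries were above all others in the series, and the log2 fold change was 1.61 (SE 0.13, adjusted p = 3.23e-07). Psmd9 was higher by 0.64 (adjusted p = 6.15e-04), and Psmd5 had 0.24 (adjusted p = 0.217). Psmd5 passed without acute control 1 (0.39, adjusted p = 0.0119), whose 164 CPM was the highest control value.

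The activators moved in different directions. Psme1 (ENSMUSG00000022216, chr14:55578123-55581529) had 118, 82.1, 74.1 and 76.1 CPM in acute Gly-Low and 57.8, 60.1, 60.6, 57.4 and 56.0 CPM in acute control, a log2 fold change of 0.63 (SE 0.14, adjusted p = 0.00156) without overlap. Psme2 (ENSMUSG00000079197, chr14:55587441-55591113), its partner in the ring, had 86.5, 57.4, 51.9 and 51.8 CPM in acute Gly-Low and 24.2, 28.4, 22.3, 22.1 and 20.5 CPM in acute control. It was higher by 1.45 (SE 0.17, adjusted p = 5.23e-06), with acute Gly-Low 1 highest. Per kilobase, Psme2 was 59.3%, 56.5%, 56.7% and 55.1% of Psme1 in acute Gly-Low and 33.9%, 38.2%, 29.8%, 31.1% and 29.6% in acute control. These did not overlap, but young control 2 (57.9%) lay in and young control 3 (65.0%) above the acute Gly-Low range.

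Psme3 (ENSMUSG00000078652, chr11:101316213-101323537), the nuclear activator, had 106, 100.05, 94.1 and 91.3 CPM in acute Gly-Low and 126, 91.1, 96.4, 101 and 91.0 CPM in acute control. Its groups overlapped and its log2 fold change was -0.0044 (SE 0.13, adjusted p = 0.98). Psme4 (ENSMUSG00000040850, chr11:30771726-30880361), an ATP-independent activator, had 22.9, 23.1, 30.8 and 28.2 CPM in acute Gly-Low and 54.9, 47.5, 42.1, 41.7 and 47.6 CPM in acute control. Every Gly-Low library lay below all 16 others, and the log2 fold change was -0.79 (SE 0.14, adjusted p = 2.49e-04). Psmf1 (ENSMUSG00000032869, chr2:151715812-151744186), first described as a proteasome inhibitor, had 26.4, 29.8, 25.5 and 23.2 CPM in acute Gly-Low and 48.1, 47.9, 46.4, 44.8 and 45.7 CPM in acute control. It too was below all 16 others, with the smallest p of the members that were lower, at -0.78 (SE 0.12, adjusted p = 6.78e-05).

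Compared with all 16 other libraries instead of the acute controls alone, 19 members had every acute Gly-Low library above (9.64% of all genes) and 2, Psme4 and Psmf1, had every one below (8.38%). The 19 held 13 core genes: Psma1 to Psma7 and Psmb1, Psmb3, Psmb4, Psmb5, Psmb6 and Psmb7. The 6 regulatory genes were Psmc3, Psmc6, Psmd6, Psmd13, Psmd14 and Psmd10.

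Core genes are short, and short genes were mostly higher in acute Gly-Low and long genes mostly lower. The median transcript length was 1165 bases for core members, 1613.5 for regulatory members and 2538 for all genes tested. Each gene's length is a median over annotated transcripts, such as 2911 bases for Psma2 (702 coding), 1852.5 for Psma3 (765) and 2234 for Psmc6 (1167). For Psme1 and Psmb5 it was 711 and 760.5 bases, less than their longest coding sequence (747 and 792). Their values per kilobase and after length correction are uncertain to that extent. The transcript lengths expressed in these libraries were not measured. In the shortest of 5 equal length classes (56 to 1334 bases) the median log2 fold change of all genes was 1.03 and 61.6% were higher and 4.17% lower. The 16 members there had a median of 1.32, with 15 higher. In the next class (1335 to 2117 bases) all genes had a median of 0.26 with 36.0% higher and 14.3% lower, and the 15 members 0.78 with 12 higher. Its 4 core members had 1.56 and its 11 regulatory members 0.68. In the middle class (2118 to 2966 bases), 3 of 8 members were higher and 4 lower, where 21.3% of genes were higher and 29.0% lower. The next class held Psmd1 alone, which did not pass (13.2% and 44.2%), and the longest Psmd5 and Psme4, of which Psme4 was lower (6.97% and 60.8%).

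**Figure D4:**
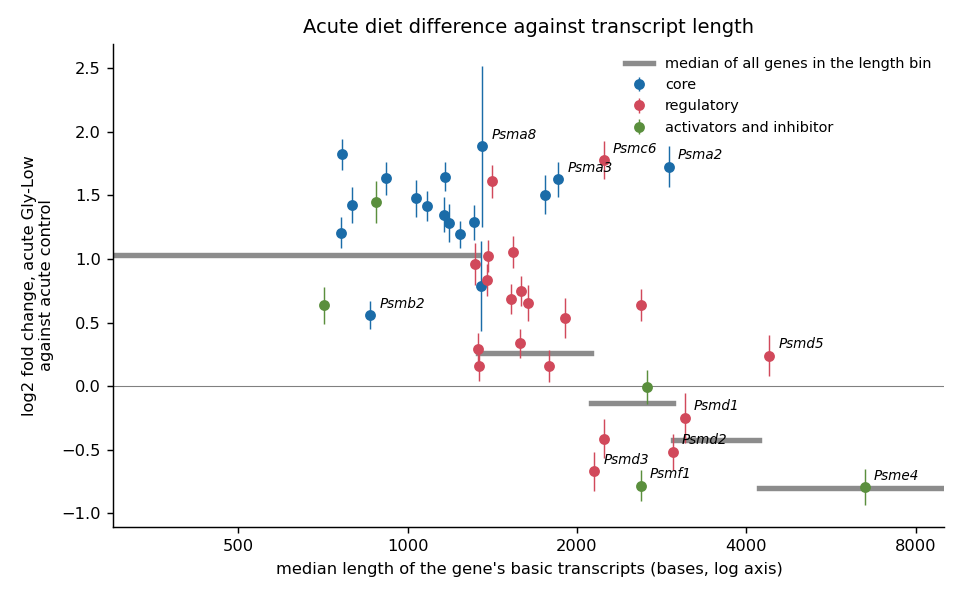
Acute log2 fold change of the 42 members (points, bars are standard errors) against median transcript length on a log axis, with the median of all genes in each of 5 length classes (grey lines). Psma2, Psma3 and Psmc6 lie at 1.72, 1.62 and 1.78, above the line of their length, and Psmf1 at -0.78 below it.

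With the length trend of each library removed as an offset, 21 members were higher and 6 lower (23.8% and 23.9% of all genes). Of the 30 members higher before, 20 kept their call, and of the 5 lower before, 3 did. The core median was 0.58 with 12 higher and 1, Psmb2, lower, and the regulatory median 0.32 with 8 higher. Psmb5 had 0.0021 (adjusted p = 0.988), Psmb6 0.25 (adjusted p = 0.124) and Psmb7 0.57 (adjusted p = 0.00387). Psme1 turned to -0.62 (adjusted p = 4.34e-04), and Psme4 had 0.017 (adjusted p = 0.933).

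With the library's length slope as a covariate over all 5 groups, 9 members were higher and 5 lower (11.2% and 8.76% of all genes). Of the 5 members lower without correction, 2 kept their call in it. The core median was 0.45 and the regulatory median -0.090, with 0.17 for all genes. In this fit Psmb5, Psmb6 and Psmb7 had 0.32, 0.32 and 0.46 and did not pass. Of the members called without correction, 8 changed sign in it, and 0 of the 8 passed: Psmb2 (-0.32), Psmc1 (-0.043), Psmd3 (0.46), Psmd7 (-0.14), Psmd8 (-0.25), Psmd12 (-0.19), Psme1 (-0.090) and Psme2 (-0.22). The 9 members higher in the test without correction and in both of these were Psma1, Psma2, Psma3, Psma4, Psma6, Psmb3, Psmc6, Psmd13 and Psmd10. Psmf1 was lower in all 3, at -0.68 with the offset and -0.69 with the covariate. The length slopes of the acute groups do not overlap, so diet and slope cannot be told apart within this arm.

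Young control 2 and old control 3, with length slopes of -0.27 and -0.20, fell near acute Gly-Low 3 (-0.23). Their core minus regulatory differences were 0.077 and 0.14, the highest of their groups, against 0.47 in acute Gly-Low 3. The other young controls had -0.32 to 0.033 and the other old controls -0.10 to -0.050. The part of the length slope in these differences was not tested.

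**Figure D5:**
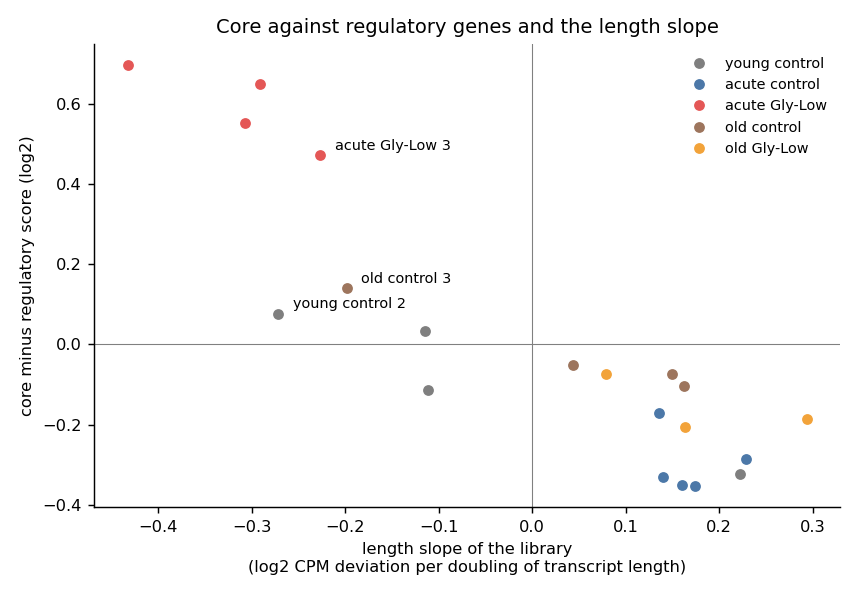
Core minus regulatory level of each library (y axis, log2) against its length slope (x axis), coloured by group. Acute Gly-Low 3 lies at 0.47 and young control 2, the highest of its group, at 0.077, at slopes of -0.23 and -0.27.

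The other features of the acute libraries were set beside the same members. Of the fixed markers tested, 5 of 5 pituitary, 5 of 5 endothelial and 3 of 5 neuronal markers were lower in acute Gly-Low. Of 8 microglial markers 4 were higher and 2 lower, and of 5 oligodendrocyte markers 2 were higher and 1 lower. Without acute controls 2, 3 and 5, which held the most pituitary transcripts, 27 members were higher and 4 lower (19.7% and 21.1% of all genes). Of the 30 members higher before, 26 kept their call, and of the 5 lower before, 3 did. The core and regulatory medians were 1.26 and 0.32. The part of endothelial and other markers in the member differences was not tested.

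Old Gly-Low against old control addresses the effect of 5 months on the diet in aged mice. In edgeR 0 of the 42 members passed (0% of 18281 genes passed), 0 had an unadjusted p under 0.05, and DESeq2 and limma-voom also called 0. This edgeR fit called only 7.46% of genes drawn at random from all tested and given a 2-fold change in simulated counts. The share for the members was not measured, and the lack of calls does not show absence of change. The core median was -0.39 with 16 of 17 below 0, the regulatory median -0.21 and that of all genes 0.031. In the shortest length class of this comparison all genes had a median of -0.27 and the 11 core members -0.40. With the length offset the core and regulatory medians were -0.14 and -0.12, and with the slope covariate -0.081 and -0.053. Psmb5 had 63.1, 78.4 and 63.7 CPM in the 3 old Gly-Low libraries and 88.5, 91.2, 129.9 and 75.7 CPM in the 4 old controls. Old control 3 was the highest and the groups overlapped, with a log2 fold change of -0.48 (SE 0.24, adjusted p = 0.953). Psmb10 had 31.1, 38.7 and 32.2 CPM in old Gly-Low and 38.6, 49.6, 78.5 and 42.9 CPM in old control, a difference of -0.62 (SE 0.30, adjusted p = 0.953). Old control 3 was again the highest. Without it, the core median over all 17 genes was -0.15 and the regulatory median -0.070.

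Of the other fixed members, Psmb6, Psmb7 and Psmb9 had -0.45, -0.38 and -0.10 on the log2 scale. Psme1, Psme2, Psme3 and Psme4 had -0.31, -0.56, -0.016 and 0.12, and Psmf1 0.010. Their standard errors ran from 0.14 to 0.43. In CPM 0 members lay wholly above in old Gly-Low (3.16% of genes). Psme1 alone lay wholly below, at 60.3, 67.4 and 61.7 in old Gly-Low and 68.2, 80.4, 95.5 and 71.1 in old control, as did 3.48% of all genes.

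Age was read from old control against young control, which differ in months of diet as well. In edgeR 0 of the 42 members passed, where 0.0328% of 18281 genes did. Of genes drawn at random and given a 2-fold change in simulated counts, this fit called only 10.4%, so smaller changes could be missed. Only 1 member had an unadjusted p under 0.05: Psme3, with 84.6, 83.9, 109 and 87.6 CPM in old and 114, 139, 116 and 94.5 CPM in young control, overlapping groups and a log2 fold change of -0.37 (SE 0.16, adjusted p = 0.501). DESeq2 called 0 members. Limma-voom with quality weights called 0 higher (9.43% of all genes) and 6 lower (12%): Psmb2, Psmb3, Psmc4, Psmd8, Psme2 and Psme3. The core median was 0.081 and the regulatory median 0.095, against the 0.019 of all genes. Without old control 3 they were -0.19 and -0.048, without young control 4 -0.079 and 0.0013, and without old control 4 0.21 and 0.20, so their direction rested on single libraries. Psmd2 had 274, 308, 264 and 263 CPM in old and 225, 249.7, 194 and 231 CPM in young control, the only member wholly above (2.82% of genes), with 0.27 (SE 0.13, adjusted p = 0.567). Psmd11 was the only one wholly below (2.86%), at 35.5, 34.2, 35.2 and 35.5 against 41.1, 35.8, 43.5 and 48.3 CPM.

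The peptidase genes Psmb5, Psmb6 and Psmb7 had age differences of -0.12, 0.0021 and 0.22 on the log2 scale. The inducible Psmb9 had 3.68, 5.99, 6.46 and 4.496 CPM in old and 2.00, 5.94, 4.85 and 1.91 CPM in young control, with overlap and a log2 fold change of 0.46 (SE 0.40, adjusted p = 0.794), and Psmb10 had 0.15. Psme1, Psme2, Psme4 and Psmf1 had 0.11, -0.37, -0.12 and -0.11. Microglial markers summed to 533 to 713 CPM in old and 319 to 435 CPM in young control, and 0 of 8 passed. Young control 4 carried the lowest core level of its group (-0.59, the other 3 from -0.10 to 0.14) and old control 3 the highest of its own (0.42).

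The control groups of young adults, which differ by 1 month of age and by arm, were also compared. In acute against young control 0 members were higher and 2 lower, where 5.29% of 19061 genes passed (0.923% higher, 4.37% lower). Psmb5 had 72.2, 68.4, 70.7, 67.9 and 58.1 CPM in acute and 109, 126, 104 and 72.2 CPM in young control, overlapping through young control 4, a log2 fold change of -0.62 (SE 0.17, adjusted p = 0.0378). Psmc4 had 91.3, 84.1, 94.0, 89.8 and 82.7 CPM in acute and 129, 139.9, 145 and 87.8 CPM in young control, again overlapping through young control 4, with -0.52 (SE 0.14, adjusted p = 0.0433). Both calls were lost when any single acute or young control other than young control 4 was left out. Without young control 4, 12 members were lower (11.3% of genes). DESeq2 called 6 lower (6.82%), and limma-voom with quality weights 3 higher (15.1%) and 25 lower (16.7%). With the length offset (1.27% of genes in either direction) and with the slope covariate (0%) 0 members passed, and Psmb5 had -0.042 and -0.17. In CPM, Psmd1 (209 to 407 against 172 to 200.1) and Psmd2 (254 to 365 against 194 to 249.7) lay wholly above in acute control (2.18% of genes), and Psmd9 (24.6 to 30.4 against 32.6 to 40.4) wholly below (3.63%). The other 9 peptidase, inducible, activator and inhibitor genes ran from -0.97 (Psme2) to 0.26 (Psme4). All 6 pituitary markers were higher in acute control, so tissue make-up, arm and age cannot be told apart here.

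Whether the diet difference itself differed between the arms was tested as an interaction over all 20 libraries. It was higher in the acute arm for 30 members and lower for 3, where 36.0% of genes passed (19.2% higher, 16.8% lower). Core genes had a median difference of 1.86 with 15 of 17 higher, and regulatory genes 0.74 with 13 higher and 1 lower of 20. The smallest p-values belonged to Psma4, Psma3 and Psma1. Psma4 differed by 1.86 (SE 0.23, adjusted p = 2.05e-05), Psma3 by 2.02 (SE 0.25, adjusted p = 2.08e-05) and Psma1 by 1.59 (SE 0.21, adjusted p = 3.74e-05). Psmc6 and Psma2 followed at 2.04 and 2.07. Psmb5, Psmb6, Psmb7 and Psmb10 differed by 1.69, 1.88, 1.73 and 1.90, and Psmb9 had 0.89 (SE 0.57, adjusted p = 0.23).

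Psme1 and Psme2 were also higher in this test, by 0.94 and 2.01, and Psme3 had 0.018 (adjusted p = 0.953). Psme1 was lower with the length offset (-0.52, adjusted p = 0.0198) and Psme2 did not pass (0.71, adjusted p = 0.0693), and with the slope covariate they had 0.026 and -0.19. The 3 members that were lower were Psme4 at -0.90 (SE 0.19, adjusted p = 0.0014), Psmf1 at -0.78 (SE 0.16, adjusted p = 9.10e-04) and Psmd11 at -0.62 (SE 0.21, adjusted p = 0.0279). The call of Psmd11 was lost without acute Gly-Low 3 (adjusted p = 0.0551), acute Gly-Low 4 (adjusted p = 0.0559) or old Gly-Low 1 (adjusted p = 0.124). With the length offset 20 members were higher and 3, Psme1, Psmf1 and Psmd11, lower (13.3% and 9.97% of genes), Psme4 had 0.24 (adjusted p = 0.576) and Psmb5 0.29 (adjusted p = 0.159), and with the slope as a covariate 5 were higher and 0 lower (4.85% and 4.17%). In limma-voom with quality weights 5 were lower (22.4%). Psma1, Psma2, Psma3, Psma4 and Psmc6 passed without correction, with the offset and with the covariate. The arms differ in age and in the length of the diet, so these cannot be told apart.

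Genes that work with the proteasome were read from fixed lists in the acute comparison, in which 58.3% of all genes passed. All 5 assembly factors of the core were higher, with a median of 1.00. They included Pomp, which joins half-barrels, at 1.43 (SE 0.15, adjusted p = 2.05e-06) and Psmg4 at 1.84 (SE 0.20, adjusted p = 3.58e-06). With the length offset only Pomp passed (1.04, adjusted p = 5.50e-05). Of 9 other components of the regulatory particle, 4 were higher and 4 lower, among them Sem1, the smallest lid subunit, at 2.37 (SE 0.19, adjusted p = 3.10e-07) and the deubiquitinase Uchl5 at 0.91 (SE 0.13, adjusted p = 3.17e-05). With the offset 4 were higher and 1 lower, and Sem1 and Uchl5 had 1.90 and 0.68 and passed.

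Of 7 genes of the NRF1 route, 3 were lower and 1 higher: Nfe2l1 itself had -0.89 (SE 0.21, adjusted p = 0.00248), its protease Ddi2 -1.30 (SE 0.20, adjusted p = 6.40e-05), Mafg -0.54 and the deglycosylating enzyme Ngly1 0.60. With the length offset Nfe2l1 had -0.41 (adjusted p = 0.0951), Ddi2 -0.48 (adjusted p = 0.0228), and 2 of the list were lower and 1 higher. Among ubiquitin and ubiquitin-activating genes, the activating enzyme Uba1 was lower, at -1.80 (SE 0.17, adjusted p = 7.26e-07). Rps27a, which fuses ubiquitin to a ribosomal protein, was higher (3.42), as was the polyubiquitin gene Ubb (0.68). With the offset Uba1 (-1.28) and Rps27a (2.13) passed and Ubb did not (0.24, adjusted p = 0.171).

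Of 9 shuttle and p97 genes, 7 were lower and 1 higher. Vcp, the p97 unfoldase, had -1.02 (SE 0.14, adjusted p = 2.43e-05) and the shuttle Ubqln1 -0.88 (SE 0.13, adjusted p = 3.54e-05), while the p97 cofactor Nsfl1c was higher (0.84). The length offset left 4 lower and 1 higher, with Vcp at -0.65, Ubqln1 at -0.47 and Nsfl1c at 0.32. Of 7 interferon and peptide-transport genes tested, 4 were lower and 1 higher: Tapbp, the peptide-loading chaperone, had -1.14 (SE 0.20, adjusted p = 1.99e-04) and B2m 1.01 (SE 0.15, adjusted p = 3.87e-05). With the offset 1, Tapbp, was lower (-0.94) and 0 higher, and B2m had -0.078 (adjusted p = 0.691). In the age and old diet comparisons 0 genes of any list passed. Members of these lists that were lower in acute control than in young control included Psmg4 (-0.93), Sem1 (-1.14), Ubb (-0.79) and Nsfl1c (-0.44).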

How the data were processed

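Poly-A RNA of mouse hypothalamus was sequenced from non-directional libraries, per the labels' protocols, so reads from overlapping genes on either strand cannot be told apart. Whole-number counts of reads for each gene were deposited by the authors, without normalization. GRCm38 and the tools featureCounts 1.5.0-p3, HISAT2 2.0.5 and DESeq2 1.20.0 are listed, with no roles, per the submitters' processing notes. Annotation release and strand setting: not given in the sources used here. Of 54532 genes, 54495 matched GENCODE M21, used for symbols, positions and the median length of basic transcripts. The other 37 held at most 0.0198% of counts. Promoter windows are from RefSeq.

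Libraries were scaled with TMM after filterByExpr and tested with edgeR 4.0.16 (quasi-likelihood F test, R 4.3.3), with Benjamini-Hochberg adjustment over all genes tested and a threshold of 0.05. The acute diet fit used 9 libraries, the age and old diet fits the 11 of the ageing arm, and the young-group and interaction fits all 20. The age and old diet comparisons share the old controls, and the acute diet and young-group comparisons the acute controls. Log2 CPM used a prior count of 2. Alternatives were DESeq2 1.42.0, limma-voom (limma 3.58.1), other scalings and filters, the library's length slope as a covariate, a length offset (40 bins), a replicate block and libraries left out. Counts simulated with known fold changes were put through the same fits. The changed genes were drawn at random from all genes tested, so the shares called are not those of the members. Of genes changed 2-fold, 55.2% were called in the acute diet fit, 37.3% in the young-group fit and 4.48% in the interaction fit. The age and old diet fits called 10.4% and 7.46% of these. They called 50% and 39.4% of genes changed 4-fold and 0% of those changed 1.41-fold.

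The members and lists were chosen with earlier results of these data known. Named in each comparison were the peptidase, inducible, activator and inhibitor genes and, in each direction, the 5 members (or fewer) of smallest p that passed. Where none passed, the 2 smallest were named. Of a list, up to 2 genes were named. Further genes were named after their values were seen, and some genes, 1 of them of the numbered subunit series, are not reported here. Neighbouring genes with at least 10% of its counts overlap Psma2, Psmb7, Psmb9, Psmd13 and Psme1, whose values are uncertain to that extent. Old control and old Gly-Low libraries of the same number, from the titles, deviated together (correlations of 0.253 to 0.417 over 3 pairs), though in 0 of the 3 pairs was the shared number the closest match, and the table's columns number the old Gly-Low libraries 1, 4 and 5.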

Additional observations from a re-analysis of the deposited data

Results flagged for a closer look

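In 7 of 52 tests of a single library against the rest of its group, the library's gap exceeded Dixon's critical value, where chance gives about 1 in 20 groups. Psmb5 was 181 CPM and Psme2 86.5 CPM in acute Gly-Low 1, both the highest of their group. In acute control 1 Psmb7 was 109 CPM, and in acute control 2 Psmb9 was 4.23 CPM. In old control 3 Psme2 was 61.4 CPM and Psme3 109 CPM, and in young control 4 Psme4 was 44.5 CPM, each the highest of its group.

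The diet difference differed between the acute and old arms by the interaction test in edgeR. It was higher in the acute arm for 30 members (19.2% of all genes) and lower for 3 (16.8%). Among peptidase and inducible genes the differences were 1.69 for Psmb5, 1.88 for Psmb6, 1.73 for Psmb7 and 1.90 for Psmb10. Among alpha ring genes they were 1.59 for Psma1, 2.07 for Psma2, 2.02 for Psma3 and 1.86 for Psma4, and the ATPase Psmc6 had 2.04. The activators had 0.94 (Psme1), 2.01 (Psme2) and -0.90 (Psme4), Psmf1 -0.78 and the lid gene Psmd11 -0.62, a call lost without acute Gly-Low 3 or 4 or old Gly-Low 1 (adjusted p of 0.0551, 0.0559 and 0.124). Under the length offset Psme1 turned to -0.52 and Psme4 to 0.24. Age and diet duration differ between the arms and cannot be told apart.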

How the results depend on the processing

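With the length offset the acute medians were 0.58 (core), 0.32 (regulatory) and 0.26 (core minus regulatory), with Psme1 at -0.62 and Psme4 at 0.017. Between arms they were 0.81, 0.49 and 0.32, with Psme1 at -0.52 and Psme4 at 0.24. The old diet core minus regulatory value was -0.023. Young-group values were 0 lower (0.987% of genes), -0.042 (core) and -0.061 (core minus regulatory). Core minus regulatory levels were -0.13 in acute control, 0.29 in acute Gly-Low and -0.00940 in old Gly-Low, and -0.20, 0.41 and -0.067 with merged exon lengths. With the slope covariate 9 members were higher in the acute arm (11.2% of genes), and the medians were 0.45, -0.090 and 0.54. Psme1 (-0.090), Psme2 (-0.22) and Psmd3 (0.46) changed sign, as did Psmb2, Psmc1, Psmd7, Psmd8 and Psmd12. Between arms 5 were higher and 0 lower in this fit (4.85% and 4.17% of genes), with 0.54, -0.00154 and 0.54, and Psme2 at -0.19. Old diet values were -0.081 (core) and -0.028 (core minus regulatory), and young-group values 0 lower (0% of genes), 0.091, 0.21 and -0.12. Under limma-voom 6 members were lower with age (12% of genes), with medians of -0.28 and -0.14. Its old diet medians were -0.090 and -0.000273. Its young-group counts were 3 higher and 25 lower (15.1% and 16.7% of genes), with a regulatory median of -0.22. Its between-arm count was 5 lower (22.4% of genes), with 1.59 (core) and 0.96 (core minus regulatory). Young-group members lower were 6 by DESeq2 (6.82% of genes) and 1 with its size factors (4.03%). There were 0 with upper-quartile factors (3.22%), without a filter (1.82%) and without acute controls 2, 3 and 5 (0%). Without those controls the acute medians were 1.26, 0.32 and 0.94. With acute controls as the young reference the age core minus regulatory value was 0.17, without young control 2 and old control 3 the old diet value was -0.084, and without chaperones and inducible subunits the acute Gly-Low level was 0.69.

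Leaving out 1 library of the compared groups at a time gave 0 to 12 young-group members lower (0% to 11.3% of genes). It also gave old diet core minus regulatory values of -0.23 to -0.082, furthest without old control 3. Between arms it gave 1.64 to 1.95 (core), 0.58 to 0.84 (regulatory) and 1.03 to 1.15 (core minus regulatory). With the replicate number as a block, 29 members were higher and 4 lower in the acute diet comparison (24.2% and 25.8% of genes) and 0 in the age and old diet comparisons, with old diet medians of -0.46 (core) and -0.32 (regulatory). The old pairs rest on the titles; in the table the old Gly-Low columns carry 1, 4 and 5. In the acute and age comparisons the libraries share only a number (correlations of -0.042 to 0.00182 and of -0.050 to 0.599). Of the values of single named genes, 1261 kept their side of the threshold, 56 lost the call, 17 gained it and 8 with a call changed sign. Where neither the edgeR test nor the alternative called a gene, its sign was not compared. The causes were not tested. Depth limits Psma8 and Psmb9 most, at 192 and 1682 counts over 20 libraries.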

Other observations

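Members tied to other tissues were near or below detection. Psmb11, the peptidase subunit of thymic cortical epithelium, had 19 counts over all 20 libraries and did not reach the count minimum in any. Psma8, of male germ cells, had 192 counts. Psme2b, a protein-coding near copy of Psme2 on chromosome 11, averaged 269 counts per library; the counting of reads that match both is not given in the sources used here, so Psme2 is uncertain to that extent. The processed pseudogenes Psmb5-ps, Psmb6-ps, Psmb6-ps2 and Psmb7-ps2 had at most 2 counts in a library.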
